A study of Drosophila melanogaster with 8 samples.

Results

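The genes described here are those whose name in the deposited table begins with eIF, eEF or eRF, the fly names for the initiation, elongation and release factors of cytosolic translation. The name rule found 53 of the 13982 genes in the table. By complex, 3 belonged to eIF2, 5 to eIF2B, 16 to eIF3, 13 to eIF4 and 5 to eEF1, and 11 lay outside these groups. RNA came from whole heads of flies aged 2 days, with 20 heads (10 male and 10 female) pooled for each library and 4 libraries for each of 2 genotypes. Control flies carried the neuronal driver nSyb-Gal4 over w[1118], a white mutant background. ND-75KD flies carried the same driver with an RNAi transgene (HMS00853) against ND-75, a core subunit of mitochondrial complex I. Both groups therefore carried the driver, whereas only ND-75KD flies carried the transgene. The study's text adds Tub-Gal80ts, which dampens Gal4, to the driver, and the sample labels do not name it. The driver is limited to neurons, whereas the heads also hold glia, fat body, muscle and blood cells. The study describes leaky expression of the transgene without a driver, so some knockdown outside neurons is possible. The sources do not state if each pool had its own cross, and p values therefore describe pool-to-pool spread, which may be technical.

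Initiation starts when eIF2, carrying GTP and the initiator tRNA, joins the small ribosomal subunit together with eIF1, eIF1A, eIF3 and eIF5. The mRNA is recruited through its cap by eIF4E, the scaffold eIF4G and the helicase eIF4A, and eIF2B recharges spent eIF2 with GTP. Phosphorylation of eIF2alpha turns eIF2 into an inhibitor of eIF2B, the step on which stress-activated kinases act. During elongation eEF1alpha delivers aminoacyl-tRNAs, eEF1beta, eEF1delta and eEF1gamma form its nucleotide exchange complex and eEF2 moves the ribosome along. eRF1 and eRF3 end the chain at a stop codon. Neurons depend on translation in both the cell body and at synapses, and mutations in eIF2B cause a degenerative disease of white matter in humans.

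Library totals ran from 21758154 to 24680283 counts in Control and from 17448199 to 24071517 in ND-75KD, and the spread between libraries of a group was 0.171 as a biological coefficient of variation. ND-75 itself stood at 561.7 to 683.9 CPM (counts scaled to library size by TMM) in Control and at 281.9 to 315.6 CPM in ND-75KD (log2 fold change −1.03, SE 0.11, adjusted p = 0.000148). All log2 fold changes are ND-75KD over Control, and adjusted p values are from edgeR's quasi-likelihood test with Benjamini-Hochberg adjustment over 9986 genes, with a gene called below 0.05. Markers of photoreceptors and neurons, which heads should hold, were abundant (the sums over 6 genes each were at least 22779 and 1926 CPM in every library), and the germline markers osk, nos and vas summed to at most 1.18 CPM in any library. The makeup of the RNA differed between genotypes: 4 of 5 fat body markers were lower, with their sum at 17130 to 25084 CPM in Control and 4350 to 7590 in ND-75KD. All 3 hemocyte markers tested and both cuticle markers tested were lower as well, as were 4 of 6 photoreceptor, 2 of 5 glial and 2 of 5 muscle markers, and 3 of 6 neuronal markers were higher. The higher neuronal markers were elav, Syn and para. In a fit that removed a trend with gene length, elav and Syn were still called (adjusted p = 0.0010 and 0.0073). In that fit para was not called (log2 fold change 0.052, adjusted p = 0.79). Among the lower markers, only the photoreceptor gene Arr2 lost its call there (log2 fold change −0.32, adjusted p = 0.13). The photoreceptor gene trp was lower with overlapping groups, and was called in only 1 of 8 fits that left out 1 library. In whole heads, fewer cells of a type and less RNA per cell cannot be told apart, and the part of this shift in the translation factor values was not tested. Control replicate 2 stood apart, with 23.9% of its counts on the mitochondrial large ribosomal RNA against 4.58 to 9.001% in the other libraries.

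Translation factor mRNAs were lower in ND-75KD heads, most of all those of eEF1, eIF2 and eIF3, whereas eIF4EHP, eIF4G2, eIF2Bdelta and eIF5 were higher. In a newer annotation 80.8% of the exonic bases of eIF5 are shared with CG46312 on the same strand, so its level is uncertain. Of the 53 genes, 44 had enough reads to be tested, 25 of these were lower and 4 were higher. Over all tested genes 18.9% were called lower and 14.3% higher. The shares over all genes were not matched for abundance, with a median level of 130 CPM in the 44 genes and 24.4 CPM over all tested genes. The Control and ND-75KD libraries did not overlap, with ND-75KD lower, in 25 of the 44 and, with ND-75KD higher, in 4, whereas 19.0% and 17.2% of all tested genes were separated in these directions. The 2 sets of 25 shared 24 genes: eEF2 was called with overlapping groups, and eRF1 was separated but not called. The median log2 fold change was −0.41 over the 44 genes and −0.01 over all tested genes. Summed over the 53 genes, the mRNA amounted to 19958, 17965, 19150 and 18753 CPM in Control replicates 1 to 4 and to 13411, 12713, 11894 and 12696 CPM in ND-75KD replicates 1 to 4. The ND-75KD mean was 66.9% of the Control mean, and no ND-75KD library reached the lowest Control library. Because eEF1alpha1 and eEF2 made up much of this sum, it was taken again without them, and the ND-75KD mean was then 73.0% of the Control mean.

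**Figure D1:**
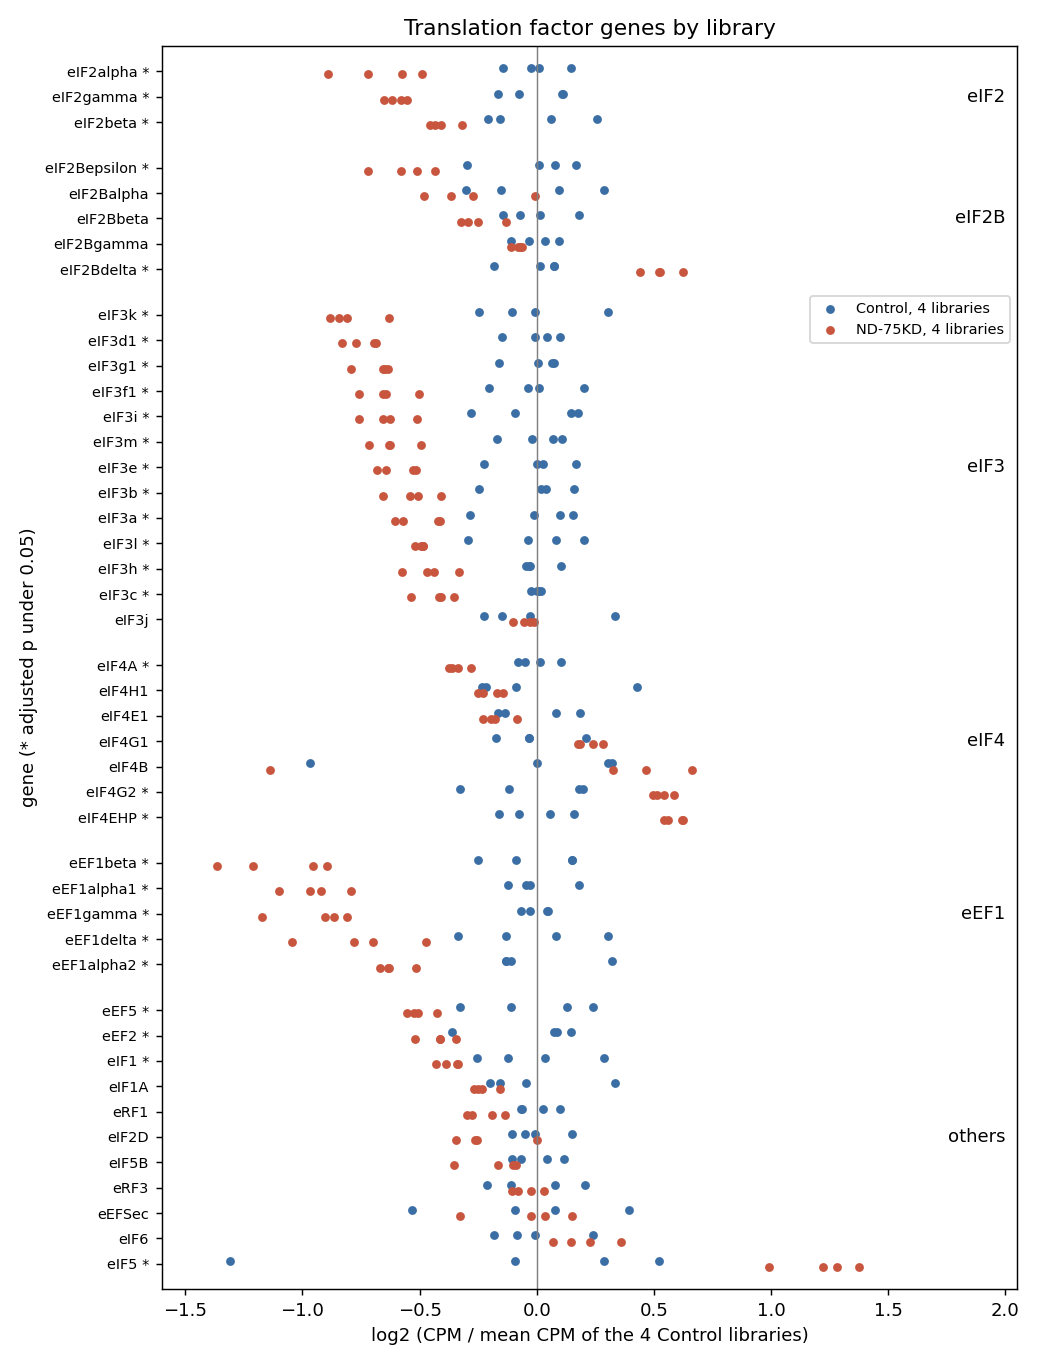
Each row is 1 of the 44 tested translation factor genes, and each point is 1 library, plotted on the x axis as log2 of its CPM over the mean of the 4 Control libraries; rows are grouped by complex and asterisks mark adjusted p under 0.05. The ND-75KD points lie left of the Control points in the eEF1 genes and in 12 of 13 eIF3 genes, and right of them in eIF2Bdelta, eIF4G2, eIF4EHP and eIF5.

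All 5 eEF1 genes were lower in ND-75KD. Their median log2 fold change was −0.93, where that over all genes was −0.01. eEF1alpha1 (2R, 11891135 to 11895762, plus strand), the general carrier of aminoacyl-tRNA, was the most abundant of the 53 per length. It stood at 6624, 5362, 5724 and 5655 CPM in Control replicates 1 to 4 and at 3368, 3085, 2722 and 2984 CPM in ND-75KD replicates 1 to 4. The highest ND-75KD library was thus well below the lowest Control library, and the log2 fold change was −0.94 (SE 0.14, adjusted p = 0.00069). Its paralog eEF1alpha2 was at 632.9, 632.8, 641.4 and 864.7 CPM in Control and at 436.0, 446.0, 447.6 and 485.6 CPM in ND-75KD. These groups were also apart, with a log2 fold change of −0.61 (SE 0.13, adjusted p = 0.0053), although Control replicate 4 lay far above the other Control libraries. The per-length ratio of eEF1alpha1 to eEF1alpha2 was 7.05 to 11.3 in Control and 6.55 to 8.33 in ND-75KD, so these ranges overlapped. Reads from sequence that the paralogs share cannot be assigned with certainty to either.

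The subunits of the exchange complex fell with their substrate. eEF1beta, the catalytic exchange subunit, stood at 467.8, 618.5, 618.1 and 523.1 CPM in Control and at 299.5, 287.7, 216.5 and 240.5 CPM in ND-75KD. This was the lowest log2 fold change among the 44 genes, −1.09 (SE 0.14, adjusted p = 0.00043). eEF1gamma, the structural subunit, was at 1049, 968.2, 1046 and 993.7 CPM in Control and at 578.1, 556.5, 450.5 and 542.7 CPM in ND-75KD, with a log2 fold change of −0.93 (SE 0.11, adjusted p = 0.00030). Its Control libraries were close together, and the ND-75KD libraries lay far below them, at a mean of 52.5% of Control. eEF1delta, the other exchange subunit, was the least abundant of the group, at 100.7, 136.4, 116.8 and 87.4 CPM in Control and 79.6, 68.0, 53.5 and 64.2 CPM in ND-75KD (log2 fold change −0.73, SE 0.16, adjusted p = 0.0056). Its groups were separated by a narrower gap than those of the other eEF1 genes. Per kb of gene length, eEF1gamma and eEF1beta averaged 598 and 580 CPM in Control and 314 and 272 CPM in ND-75KD, whereas eEF1delta averaged 119 and 71.5 CPM. The sum over the 5 genes fell from between 7718 and 8874 CPM to between 3890 and 4761 CPM, or from 0.822% to 0.435% of normalised counts.

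eEF2, the translocase (2L, 21677913 to 21682164, minus strand), changed less. It was at 4103, 2889, 3908 and 3941 CPM in Control and at 2923, 2786, 2585 and 2790 CPM in ND-75KD. Control replicate 2 lay inside the ND-75KD range, and the other Control libraries were above it. The log2 fold change was −0.42 (SE 0.14, adjusted p = 0.045). Among the fits that left out 1 library, this call remained only without Control replicate 2, where the log2 fold change was −0.52, and it was lost in edgeR with DESeq2's size factors (adjusted p = 0.051), with upper quartile scaling (0.056), with no filter (0.068) and with at least 10 reads required in every library (0.062). DESeq2 itself called eEF2 (adjusted p = 0.0070). The ratio of eEF1alpha1 to eEF2 per kb was 1.78 to 2.30 in Control and 1.31 to 1.43 in ND-75KD, so that eEF1alpha1 was lower relative to eEF2 in every ND-75KD library.

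**Figure D2:**
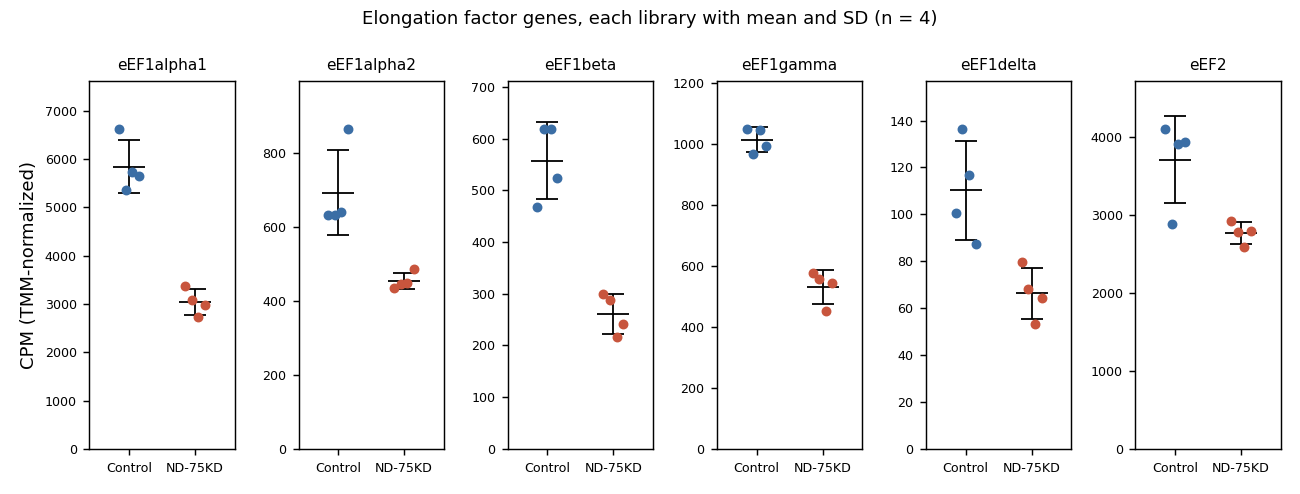
CPM of the 5 eEF1 genes and eEF2 on linear axes that start at 0, with 1 point for each library and black bars for the mean and SD of 4 libraries. In the eEF1 genes all ND-75KD points lie below all Control points, whereas in eEF2 the lowest Control point, 2889 CPM, lies among the ND-75KD points.

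All 3 subunits of eIF2 were lower. eIF2alpha (X, 16445176 to 16446993, minus strand), which carries the regulatory phosphorylation site, was at 80.1, 90.3, 82.1 and 73.8 CPM in Control and at 58.1, 49.5, 44.0 and 54.8 CPM in ND-75KD. Its groups were well apart (log2 fold change −0.66, SE 0.11, adjusted p = 0.0014). eIF2gamma, the GTP- and tRNA-binding subunit, stood at 84.1, 95.9, 95.5 and 79.1 CPM in Control and at 59.3, 60.5, 56.4 and 57.8 CPM in ND-75KD, a tight low cluster (log2 fold change −0.60, SE 0.09, adjusted p = 0.00094). In the annotation 16.0% of its exonic bases are shared with Su(var)3-9 on the same strand, and 12.6% of those of eIF2alpha lie opposite exons of rngo. eIF2beta, which binds eIF5 and the eIF2B exchange subunit, was at 81.2, 108.2, 94.5 and 78.5 CPM in Control and at 72.7, 67.1, 66.0 and 68.2 CPM in ND-75KD. The gap between these groups was small, the log2 fold change was −0.40 (SE 0.11, adjusted p = 0.020), and the call was lost without Control replicate 3 (adjusted p = 0.068) and without ND-75KD replicate 2, 3 or 4 (adjusted p = 0.057, 0.060 and 0.053).

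The eIF2B genes did not move together. eIF2Bepsilon (X, 1920166 to 1922874, minus strand), the catalytic subunit, was at 25.0, 34.5, 30.8 and 32.4 CPM in Control and at 20.5, 18.6, 21.5 and 22.7 CPM in ND-75KD. It was lower, with separate groups (log2 fold change −0.55, SE 0.12, adjusted p = 0.0057). eIF2Bdelta (2R, 23386521 to 23389052, plus strand), a regulatory subunit that senses phosphorylated eIF2, was at 19.0, 15.9, 18.2 and 19.0 CPM in Control and at 25.96, 24.5, 25.9 and 27.8 CPM in ND-75KD. It was higher in every ND-75KD library than in any Control library (log2 fold change 0.53, SE 0.10, adjusted p = 0.0027). The per-length ratio of eIF2Bdelta to eIF2Bepsilon was accordingly 0.519 to 0.857 in Control and 1.35 to 1.48 in ND-75KD. The regulatory subunits eIF2Balpha and eIF2Bbeta and the catalytic partner eIF2Bgamma did not pass the test, with log2 fold changes of −0.27 (SE 0.15, adjusted p = 0.19), −0.25 (SE 0.10, adjusted p = 0.078) and −0.08 (SE 0.09, adjusted p = 0.50). Summed over the 5 genes, ND-75KD stood at 90.5% of Control, with overlapping libraries.

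Of the 13 tested eIF3 genes 12 were lower and none was higher, with a median log2 fold change of −0.59. Over all tested genes 18.9% were lower and 14.3% higher. DESeq2 also called 0 of the 13 higher, where it called 17.2% of all tested genes higher. Before adjustment, too, none of the 13 was higher below a p of 0.05 in edgeR. The share of all tested genes below that unadjusted p was not taken. eIF3 is the large scaffold that holds the initiation factors on the small subunit. The 12 lower genes stood at 57.9 to 74.3% of Control, with log2 fold changes from −0.79 in eIF3k to −0.43 in eIF3c and adjusted p values from 0.000268 to 0.00881. In each of them the libraries were separated by genotype, and all 12 were still called whichever library was left out. Tested against a fold of 1.2, 9 were called, without eIF3a, eIF3c and eIF3l (adjusted p = 0.054, 0.064 and 0.052). eIF3d1 (3R, 23680039 to 23682317, plus strand), the subunit that can itself bind the mRNA cap in human cells, was at 168.9, 162.6, 156.9 and 142.5 CPM in Control and at 97.6, 98.1, 88.6 and 92.4 CPM in ND-75KD. This was the smallest adjusted p of the group (log2 fold change −0.74, SE 0.09, adjusted p = 0.00027). eIF3g1, an RNA-binding subunit, was at 127.9, 150.5, 149.5 and 143.3 CPM in Control and at 90.5, 92.1, 82.4 and 91.1 CPM in ND-75KD (log2 fold change −0.68, SE 0.09, adjusted p = 0.00044). eIF3k, a peripheral subunit, was at 92.4, 135.4, 109.2 and 101.9 CPM in Control and at 71.0, 61.2, 59.5 and 62.6 CPM in ND-75KD (log2 fold change −0.79, SE 0.12, adjusted p = 0.0011). ND-75KD replicate 3 was the lowest ND-75KD library in 12 of the 13 eIF3 genes, and in 26 of all 44.

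The core subunits changed by similar amounts. eIF3a, eIF3b and eIF3c, the large subunits around which the complex assembles, had log2 fold changes of −0.50, −0.53 and −0.43. Their ranges in Control and ND-75KD were 260.3 to 353.3 and 208.5 to 238.3 CPM for eIF3a, 239.8 to 317.4 and 180.2 to 214.1 CPM for eIF3b, and 306.0 to 314.9 and 214.4 to 243.7 CPM for eIF3c. The JAB1/MPN-domain subunits eIF3f1 and eIF3h stood at −0.64 and −0.45, and the PCI-domain subunits eIF3e, eIF3l and eIF3m at −0.59, −0.50 and −0.62, with eIF3i, a WD40 repeat protein, at −0.63. In eIF3h, 16.8% of exonic bases lie opposite exons of senju, and a strand setting for the counts is not given in the sources used here. Per kb of gene length, the mean levels of the 12 genes spanned 78.4 to 176 CPM in Control and 46.8 to 113 CPM in ND-75KD, so the spread among subunits, 2.24-fold in Control and 2.42-fold in ND-75KD, was little changed while the level dropped.

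eIF3j, a loosely bound subunit that helps position eIF3 on the ribosome and is not part of its core, was the exception. It was at 104.6, 146.0, 113.4 and 99.2 CPM in Control and at 111.6, 114.9, 107.8 and 113.4 CPM in ND-75KD. The groups overlapped throughout (log2 fold change −0.05, SE 0.12, adjusted p = 0.78). Set against eIF3d1 per length, eIF3j was at a ratio of 0.914 to 1.33 in Control and 1.69 to 1.81 in ND-75KD. The duplicated genes eIF3d2, eIF3f2 and eIF3g2 reached at most 9 reads in any library and were not tested.

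**Figure D3:**
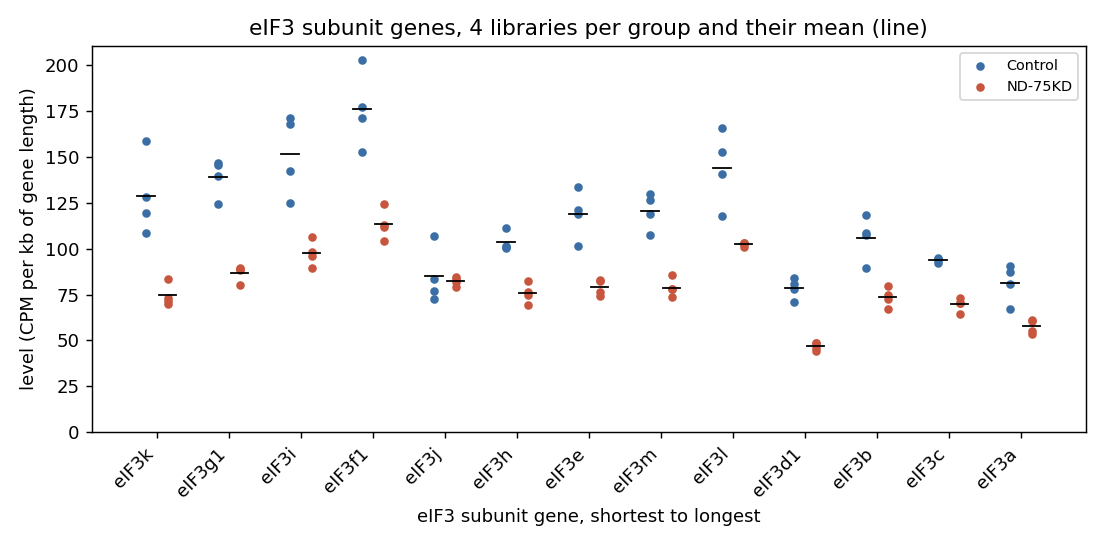
Level in CPM per kb of gene length (y axis, from 0) of the 13 tested eIF3 genes, ordered from the shortest to the longest on the x axis, with 1 point for each of 4 libraries per group and a line at the mean. Only eIF3j has overlapping groups, and the means of the other 12 span 78.4 to 176 in Control and 46.8 to 113 in ND-75KD.

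The eIF4 genes were mixed, with 2 of the 7 tested genes higher and 1 lower. Over all tested genes 14.3% were higher and 18.9% lower, so these counts are near what those shares would give for 7 genes. eIF4EHP (3R, 24063077 to 24108960, minus strand), a cap-binding protein that does not bind eIF4G and represses translation of the mRNAs it occupies in the fly embryo, was at 126.9, 136.4, 109.1 and 115.7 CPM in Control and at 179.9, 177.8, 187.3 and 188.0 CPM in ND-75KD. Every ND-75KD library was well above every Control library (log2 fold change 0.59, SE 0.10, adjusted p = 0.0013). eIF4E1, the main cap-binding initiation factor, was at 241.3, 259.4, 207.8 and 203.1 CPM in Control and at 194.7, 199.0, 201.3 and 214.8 CPM in ND-75KD, with overlapping groups (log2 fold change −0.17, SE 0.11, adjusted p = 0.23). The ratio of eIF4EHP to eIF4E1 per length was 0.183 to 0.198 in Control and 0.305 to 0.324 in ND-75KD, so eIF4E1 remained the more abundant mRNA per length in all 8 libraries. In eIF4EHP 7.0% of exonic bases are shared with Syx1A, a neuronal syntaxin on the same strand.

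eIF4G2 (3R, 23808285 to 23819237, minus strand), an eIF4G paralog known for its role in the male germline, was at 64.1, 44.6, 51.5 and 63.4 CPM in Control and at 78.9, 79.7, 81.5 and 83.9 CPM in ND-75KD. The groups were separate (log2 fold change 0.53, SE 0.12, adjusted p = 0.0073). Exons of CG33111 on the same strand share 8.6% of its exonic bases. The germline markers osk, nos and vas summed to 0.491 to 0.777 CPM in Control and 0.835 to 1.18 CPM in ND-75KD, mostly from vas. In any library osk and nos had at most 3 and 2 reads. By itself vas overlapped between groups, at 0.485 to 0.777 CPM in Control and 0.751 to 1.07 CPM in ND-75KD, and was not called (adjusted p = 0.13). The general scaffold eIF4G1 was at 328.8, 277.4, 277.5 and 251.7 CPM in Control and at 320.4, 322.9, 345.1 and 335.0 CPM in ND-75KD (log2 fold change 0.22, SE 0.11, adjusted p = 0.13). Its groups overlapped only through Control replicate 1, without which the adjusted p was 0.024 and the log2 fold change 0.34. The ratio of eIF4G2 to eIF4G1 overlapped between groups, at 0.116 to 0.1818 in Control and 0.1703 to 0.1806 in ND-75KD.

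eIF4A, the helicase that unwinds mRNA for the ribosome, was the lower gene of this group. It was at 1609, 1446, 1512 and 1416 CPM in Control and at 1230, 1154, 1186 and 1165 CPM in ND-75KD, with separate groups (log2 fold change −0.34, SE 0.11, adjusted p = 0.033). The call was lost in 6 of the 8 fits that left out 1 library, with adjusted p values of 0.090 and 0.11 without Control replicates 1 and 3 and of 0.066, 0.10, 0.081 and 0.094 without ND-75KD replicates 1 to 4. It was lost as well with no filter (adjusted p = 0.062) and with at least 10 reads required in every library (adjusted p = 0.052). The helicase cofactors eIF4B and eIF4H1 did not pass the test. eIF4B varied widely, from 7.20 to 17.6 CPM in Control and from 6.38 to 22.3 CPM in ND-75KD, and replicate 3 was the lowest library of both genotypes. Among the other eIF4E and eIF4H paralogs, several of which are known from the testis, none passed the filter on low counts. eIF4E6 had 19, 8, 12 and 14 reads in Control and 7, 7, 3 and 4 in ND-75KD, and eIF4E3, eIF4E4, eIF4E5, eIF4E7 and eIF4H2 had at most 9 reads in any library. Where a setting let eIF4E6 in, it was called lower with mitochondrially encoded genes left out (adjusted p = 0.027), with no filter (adjusted p = 0.040) and without Control replicate 2, ND-75KD replicate 1 or ND-75KD replicate 2, and not without ND-75KD replicate 3 or 4. Its ND-75KD reads all lay below 10, the filter's minimum count, so under the filter only its Control reads could let it in. A lower call in the filtered fits was thus favoured in advance.

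Genes that bind or regulate these factors but carry other names were also examined. Of 21 such genes, 4 were higher and 3 lower, which is near what the shares over all tested genes, 14.3% and 18.9%, would give for a list of this size. DESeq2 called 6 higher and 4 lower, where its shares over all tested genes were larger, at 17.2% and 20.4%. Thor, the fly 4E-BP that keeps eIF4E from eIF4G, was at 214.0, 234.3, 179.6 and 138.3 CPM in Control and at 324.6, 317.3, 390.1 and 373.6 CPM in ND-75KD, with no overlap (log2 fold change 0.88, SE 0.16, adjusted p = 0.0026). Per length, Thor stood at 2.02 to 2.67 times eIF4E1 in Control and 4.72 to 5.74 times in ND-75KD. larp, whose mammalian counterpart LARP1 binds the mRNAs of ribosomal proteins and elongation factors, was at 401.0, 366.9, 369.3 and 278.7 CPM in Control and at 607.1, 615.1, 644.8 and 643.5 CPM in ND-75KD (log2 fold change 0.83, SE 0.13, adjusted p = 0.00090). NAT1, the fly counterpart of the mammalian eIF4G-like factor DAP5, was at 413.2 to 539.0 CPM in Control and 563.3 to 638.0 in ND-75KD. Its groups were separate but its call (log2 fold change 0.39, adjusted p = 0.028) was lost once a trend with gene length was removed (adjusted p = 0.14), and also without Control replicate 4 (adjusted p = 0.050) or ND-75KD replicate 1, 2 or 3 (adjusted p = 0.076, 0.079 and 0.066). Lk6, the kinase of eIF4E, and mxt, an eIF4E-binding protein, were lower, with log2 fold changes of −0.38 (SE 0.12, adjusted p = 0.034) and −0.27 (SE 0.08, adjusted p = 0.027). Lk6 was called in only 1, and mxt in only 2, of the 8 fits that left out 1 library. With the length trend removed both were called, at −0.58 (adjusted p = 0.00078) and −0.39 (adjusted p = 0.0037). With a replicate block neither was called (adjusted p = 0.082 and 0.10). pAbp, the poly(A)-binding protein that bridges the mRNA tail to eIF4G, was at 1091 to 2176 CPM in Control and 1146 to 1298 in ND-75KD and did not pass the test (log2 fold change −0.31, SE 0.20, adjusted p = 0.24). Among genes acting on or downstream of eIF2alpha, PPP1R15, a phosphatase subunit, was at 105.3 to 130.7 CPM in Control and 132.4 to 147.8 CPM in ND-75KD. Its groups were separate and higher in ND-75KD, and it missed the threshold in edgeR (log2 fold change 0.24, SE 0.09, adjusted p = 0.073) but passed it with DESeq2 (adjusted p = 0.038) and with the length trend removed (adjusted p = 0.025). The kinase gene Gcn2 was also separate and higher, by a narrow gap, at 13.8 to 22.1 CPM in Control and 22.5 to 26.2 CPM in ND-75KD, and did not pass the test (log2 fold change 0.29, SE 0.15, adjusted p = 0.15). The kinase gene PEK and crc, which encodes the fly ATF4, overlapped between groups and were not called (adjusted p = 0.92 and 0.18). The study reports stronger antibody staining for ATF4 in the larval nervous system and the adult brain with neuronal knockdown. For phosphorylated eIF2alpha it reports this in larval motor neurons, with another driver. It also reports that knockdown of the kinase PERK (PEK) removed the ATF4 activation in larval motor neurons. These mRNA values from adult heads do not measure protein or phosphorylation. The study's own test also found PPP1R15 increased in these samples.

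**Figure D4:**
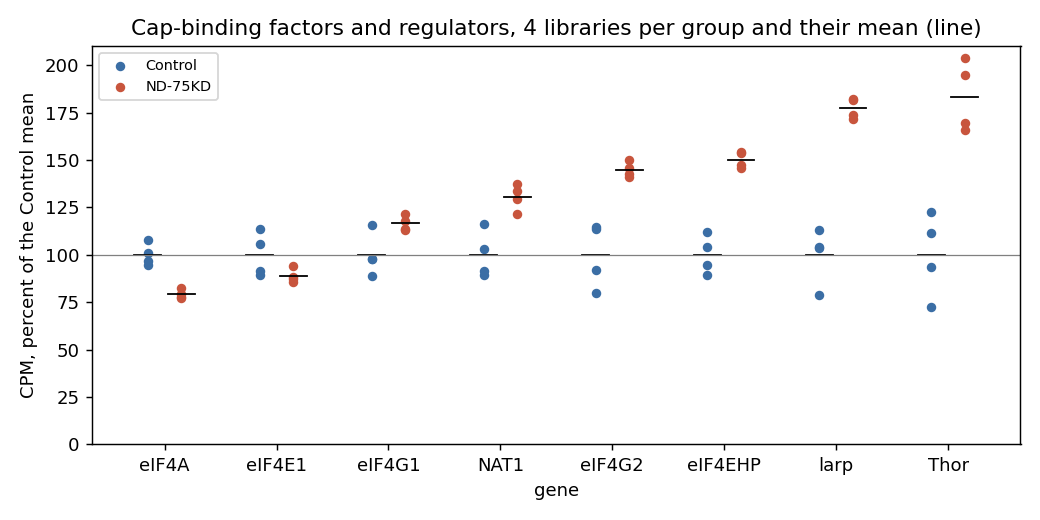
CPM of 8 genes for cap-binding factors, scaffolds and their regulators as a percentage of each gene's Control mean (y axis, from 0), with 1 point for each of 4 libraries per group and a line at the mean. The NAT1, eIF4G2, eIF4EHP, larp and Thor points are apart and higher in ND-75KD, eIF4A is apart and lower, and eIF4E1 and eIF4G1 overlap.

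Outside the complexes, eIF5, the GTPase activator of eIF2 (X, 15987008 to 15991974, minus strand), had the highest log2 fold change of the 44 genes but few reads. It was at 2.99, 0.99, 2.29 and 3.52 CPM in Control and at 4.87, 5.70, 6.34 and 5.94 CPM in ND-75KD, from 73, 14, 49 and 87 reads and 98, 114, 152 and 161 reads. The groups were separate (log2 fold change 1.19, SE 0.29, adjusted p = 0.010), and the call held whichever library was left out. In the newer annotation used to check coordinates, 80.8% of its exonic bases are shared on the same strand with CG46312, a gene not analysed here, so that the reads of the 2 may not be separable and the level of eIF5 itself is uncertain. eIF5 is also in a gene list that the study chose on these same samples.

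Of the other early initiation factors, eIF1, which guards start codon choice, was at 162.0, 192.5, 144.9 and 132.4 CPM in Control and at 120.9, 117.3, 124.6 and 125.3 CPM in ND-75KD. It was lower by a narrow gap (log2 fold change −0.37, SE 0.12, adjusted p = 0.034), and with the length trend removed its log2 fold change was −0.14 (adjusted p = 0.28). In the fits that left out 1 library it was called only without Control replicate 2 or 4. eEF5, the fly eIF5A that carries hypusine and helps ribosomes past stalling sequences, was at 603.1, 894.6, 827.5 and 700.1 CPM in Control and at 563.0, 515.5, 532.5 and 525.8 CPM in ND-75KD. Its groups were separate (log2 fold change −0.50, SE 0.13, adjusted p = 0.017), although the call was lost without Control replicate 3 and without ND-75KD replicates 2 and 4 (adjusted p = 0.063, 0.055 and 0.050). Neither enzyme gene for hypusine, CG8005 or nero, was called (adjusted p = 0.60 and 0.89). eIF1A, the subunit joining factor eIF5B, eIF2D and the anti-association factor eIF6 had log2 fold changes of −0.23, −0.17, −0.21 and 0.21, and eEFSec, the selenocysteine elongation factor, one of −0.02. None of these 5 passed the test, and in each the libraries of the genotypes overlapped; eIF1A, the most abundant, was at 314.8 to 455.8 CPM in Control and 299.6 to 323.5 CPM in ND-75KD.

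The release factors changed little. eRF1, which reads the stop codon, was at 160.4 to 180.3 CPM in Control and at 136.7 to 153.1 CPM in ND-75KD, without overlap but also without passing the test (log2 fold change −0.22, SE 0.09, adjusted p = 0.073). In the annotation 6.1% of its exonic bases are shared with CG5618 on the same strand. DESeq2, which called 20.4% of all tested genes lower, called it (adjusted p = 0.042). eRF3, its GTPase partner, overlapped between groups (log2 fold change −0.05, SE 0.10, adjusted p = 0.76). Of the genes that split or rescue ribosomes, pix, the fly ABCE1 that recycles ribosomes after termination, was at 337.5 to 361.6 CPM in Control and 254.6 to 275.9 CPM in ND-75KD and was lower (log2 fold change −0.41, SE 0.09, adjusted p = 0.0062). HBS1, an eRF3 relative that acts on stalled ribosomes, was at 20.2 to 29.1 CPM in Control and 34.0 to 43.2 CPM in ND-75KD and was higher (log2 fold change 0.55, SE 0.13, adjusted p = 0.0090). Its partner pelo was not called (log2 fold change 0.10, adjusted p = 0.42).

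Fold change varied with gene length in these libraries. The median log2 fold change rose from −0.37 in the shortest of 10 bins of tested genes to 0.23 in the longest, with a Spearman rho across genes of 0.35, where genes share their libraries and are not independent. Over the 44 translation factor genes, whose median length of 1838 bases was below the 2096 of all tested genes, rho was 0.43. eIF4EHP, eIF4G2 and larp, which were higher, are long (6418, 9097 and 9126 bases), and eEF1beta, eEF1delta and eIF3k, which were lower, are short (960, 928 and 853 bases). A second fit therefore removed the trend with length in each library. In that fit 26 genes were lower and 5 higher, against 19.5% and 15.9% of all tested genes, and the median over the 44 genes was −0.32. It called 24 of the 25 lower genes, all but eIF1, and all 4 higher genes. The log2 fold change of eEF1alpha1, at 2464 bases near the middle of the range, was −0.93 in that fit against −0.94, that of eIF4EHP 0.38 (adjusted p = 0.034) and that of eIF4G2 0.31 (adjusted p = 0.0061), and the 12 lower eIF3 genes ran from −0.67 to −0.31. eIF5B (−0.32) and eRF1 (−0.28) were called lower and eIF6 (0.40) higher in that fit and not in the first.

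**Figure D5:**
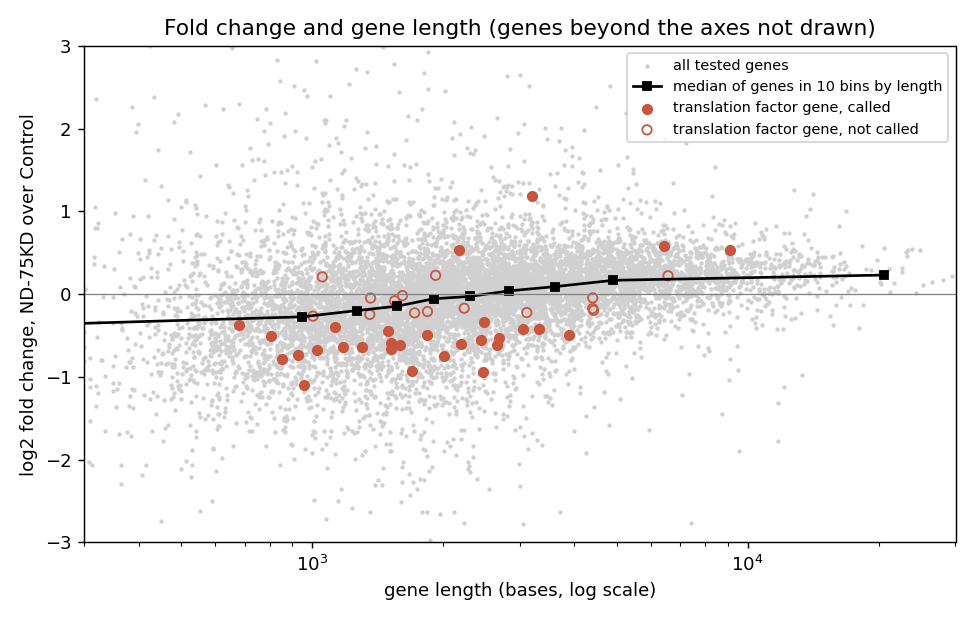
Log2 fold change (y axis, ND-75KD over Control) against gene length in bases (x axis, log scale) for all tested genes (grey points) and for the 44 translation factor genes (red, filled where called), with black squares at the median of genes in 10 bins by length. The squares rise from −0.37 to 0.23, and most filled red points below 0 lie under the line of squares.

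By chromosome arm, the lower genes were 5 of 6 tested on 2L, 7 of 12 on 2R, 4 of 8 on 3L, 6 of 11 on 3R, 3 of 6 on X and 0 of 1 on chromosome 4, where 17.8 to 19.7% of all tested genes on the large arms and 6.45% on chromosome 4 were lower. Leaving out Control replicate 2 gave 26 lower and 5 higher genes (19.0% and 15.7% of all genes tested), and leaving out ND-75KD replicate 3 gave 21 and 4 (12.9% and 9.19% of all genes tested). Both of these fits tested 45 translation factor genes, as eIF4E6 passed the filter, and it was called lower without Control replicate 2. Of the 25 lower genes 20, and of the 4 higher genes all 4, were called in each of the 8 fits that left out 1 library. The 5 genes without that stability were eEF2, eEF5, eIF1, eIF2beta and eIF4A.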

How the data were processed

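Whole-head RNA was sequenced as paired-end libraries. The authors cleaned reads with fastp, aligned them with HISAT2 to the Ensembl 102 genome and deposited counts per gene from featureCounts (versions and strand setting not given in the sources used here). The deposited signal values are counts divided by a size factor, and the deposited FPKM values are scaled to gene length. The log2 fold changes and p-values of the authors' own DESeq2 comparison are also in the table and, like the signal and FPKM values, were not used.

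Counts were fitted with edgeR 4.0.16 in R 4.3.3 over all genes kept by filterByExpr (minimum count 10, minimum total 15), which left 9986 genes, with TMM scaling and Benjamini-Hochberg adjustment. The SE is the absolute log2 fold change over the square root of F. CPM per kb used the table's gene lengths. Alternatives used DESeq2 1.42.0, limma 3.58.1 (voom), other scalings and filters, a loess trend (span 0.5) of counts on gene length removed in each library, a replicate block and leave-one-out fits. The fits were tested on simulated counts. All 53 gene spans in the table equal those in Ensembl 115, which gave the exon overlaps. The listed genes cup and mEFG2 were not matched by name and are not analysed here.

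Members and gene lists were chosen with earlier results of these data known. Values per library are given for every eIF2 and eEF1 gene, for the 3 called genes of smallest adjusted p in each other complex, for called genes moving against their group and for paralogs with at least 10 reads; other genes are given by ranges, fold changes or counts. The values by library of eIF1, eEF5, eEF2 and eIF3j were added after they were seen. Partner genes named are those called, Thor, NAT1 and pAbp; Gcn2, PEK, PPP1R15, crc, CG8005, nero and pelo were added after their values were seen.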

Additional observations from a re-analysis of the deposited data

Results flagged for a closer look

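Within a group of 4 libraries, 5 values lay so far from the other 3 that they passed Dixon's 95% limit for the gap over the range. In all, 110 groups were examined, and chance flags about 1 in 20 of them. eEF1alpha2 was at 864.7 CPM in Control replicate 4, against 632.8 to 641.4 in the other Control libraries. eEF2 was at 2889 CPM in Control replicate 2, against 3908 to 4103. eIF3h was at 166.0 CPM in Control replicate 2, against 149.9 to 151.8. eIF3g1 was at 82.42 CPM in ND-75KD replicate 3, against 90.54 to 92.07, and ND-75 itself was at 281.9 CPM in that library, against 312.1 to 315.6.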

How the results depend on the processing

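The counts of lower and higher translation factor genes stayed within 1.5 times 25 and 4 under every alternative: 17 to 27 lower and 4 or 5 higher, with 17 lower when tested against a fold of 1.2. Of all 9986 tested genes, 1121 were lower and 696 higher against that fold, and 2349 and 1996 with voom. Against that fold 9 eIF3 and 2 eIF2 genes were lower, and eIF3a, eIF3c, eIF3l and eIF2beta were among the genes no longer called. No called translation factor gene changed sign. The number of lower eIF4 genes, 1, was 2 with mitochondrially encoded genes left out (eIF4E6 was then tested) and 2 with the length trend removed together with Control replicate 2 left out, an alternative chosen after seeing the data; it was 0 with at least 10 reads required in every library, 0 with the replicate block and 0 against a fold of 1.2. With no filter it remained 1, but the gene was eIF4E6 and no longer eIF4A, as it was without ND-75KD replicate 1 or 2. In the filtered fits eIF4E6 entered only through its Control reads. Lower partner genes, 3, were 1 with the block and 0 against a fold of 1.2. For mitochondrial factors, 1 lower became 3 with voom, and 1 higher became 2 with the length trend removed, 0 with the block and 0 against a fold of 1.2.

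Leaving out 1 library at a time gave 20 to 26 lower and 4 to 5 higher translation factor genes, 2 to 3 lower eIF2 genes, 0 to 2 lower eIF4 genes, 3 to 6 higher and 1 to 3 lower partner genes and 1 to 2 lower and 0 to 1 higher mitochondrial factors; the counts of lower eIF3, eEF1 and eIF2B genes remained 12, 5 and 1. Signs turned only in genes that were not called. eEFSec (log2 fold change −0.02) was 0.0133 with upper quartile scaling, 0.0218 with mitochondrially encoded genes left out, 0.0223 with at least 10 reads, 0.12 with the length trend removed, 0.0032 with the block and 0.22 with the trend removed and Control replicate 2 left out. eIF3j was 0.0038 with voom, and 0.12 and 0.18 in the latter 2 length fits, in which eIF2Bgamma was 0.0537 and 0.019. Without 1 library, eEFSec ranged from −0.16 to 0.14, eIF3j from −0.12 to 0.0862 and eRF3 from −0.11 to 0.0713. The cause of these changes was not tested.

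Replicate numbers did not pair the samples: correlations of same-numbered deviations were −0.137, −0.056, −0.029 and 0.040. With the replicate block 22 genes were lower and 4 higher, and eEF2, eIF1 and eIF4A were not called. Depth limits what can be said of the 9 genes that were not tested.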

Other observations

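The translation factors of mitochondria, which act on the few mRNAs made inside the organelle, were also measured. Of the 9 genes tested, 1 was lower and 1 was higher, near what the shares over all tested genes (18.9% and 14.3%) would give for 9 genes, and the median log2 fold change was −0.00095 against −0.01 over all tested genes. mEFTu2, an elongation factor that delivers aminoacyl-tRNAs in mitochondria, was at 31.1, 45.1, 41.4 and 35.7 CPM in Control and at 24.5, 20.2, 24.8 and 23.3 CPM in ND-75KD. Its groups were separate (log2 fold change −0.72, SE 0.13, adjusted p = 0.0022). The related gene mEFTu1 and the exchange factor mEFTs were also lower in every ND-75KD library than in any Control library, by narrow gaps (98.8 against 104.2 CPM and 48.9 against 49.99 CPM at the nearest). Their log2 fold changes of −0.28 and −0.29 did not pass the test (edgeR adjusted p = 0.057 and 0.055). With voom, 3 of the 9 genes were called lower, as were 2349 of all 9986 tested genes. mRF1, a release factor, was at 5.12 to 6.15 CPM in Control and at 7.14 to 9.01 CPM in ND-75KD and was higher (log2 fold change 0.47, SE 0.13, edgeR adjusted p = 0.022), although without ND-75KD replicate 4 the adjusted p was 0.076.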
